A study of Mus musculus with 12 samples.

Results

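Titin, the M-band proteins and the proteins that fold and hold myosin were examined through 7 genes of the 23337 in the deposited tables. They were chosen by name for what their proteins do: Ttn (titin), the M-band genes Myom1, Myom2 and Obsl1, the myosin binding protein gene Mybpc3, and the myosin assembly factors Smyd1 and Unc45b. All 7 passed the filter on low counts in every comparison. Their RNA was counted in 12 samples of sorted mouse cardiomyocytes (CMs, heart muscle cells), in 4 groups of 3, to compare CMs lacking Srf with CMs that kept a copy. Srf encodes serum response factor, a transcription factor that binds a DNA element called the CArG box.

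Every animal carried at least a single floxed Srf allele and received AAV9-cTNT-Cre, a virus that expresses Cre recombinase from the cardiac troponin T promoter and so acts in CMs. Knockout (KO) animals were Srf-flox/flox and control (CTRL) animals were Srf-flox/+, so CTRL CMs also met Cre and lost a copy of Srf. Neonatal animals were injected at P1 (postnatal day 1) and their CMs were isolated at P14. Adult animals were injected at P60 and their CMs were isolated at P90. The dose was low, so only part of the CMs in a heart was hit, and CMs with a Cre-activated fluorescent reporter were sorted after collagenase perfusion. Per the study's methods, the mice were of mixed background. Sex is not given in the labels.

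The sarcomere, the repeating unit of striated muscle, holds myosin in thick filaments whose centres are tied together at the M-band. Titin is a giant protein that runs from the Z-disk to the M-band, acts as a molecular spring and is thought to guide thick filament length; the myomesins (Myom1, Myom2) crosslink thick filaments at the M-band, and Obsl1 and its relative obscurin connect titin and myomesin there. Cardiac myosin binding protein C (Mybpc3) sits on the thick filament and tunes crossbridge cycling, Unc45b is a chaperone that folds the myosin motor domain together with Hsp90, and Smyd1 is a muscle-restricted lysine methyltransferase needed for sarcomere assembly.

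Promoter sequence is shown first for the members whose upstream DNA carried an exact match to the CArG box or to the MEF2 site, a box bound by the MEF2 family of muscle transcription factors, and for Smyd1, which had neither. RefSeq windows of 250 bases before to 50 bases after the annotated start (build GRCm38.p6, the same chromosome coordinates as mm10) were found for 6 of the 7 members. Myom2 was not in that set. Both palindromic motifs were searched as exact consensus matches, which covers both strands. The CArG box was found in 1.63% of 32851 windows and in the window of 1 of the 6 members, Myom1, with its first base 99 bases upstream of the start. The MEF2 site was found in 3.19% of windows and in those of Ttn (166 bases upstream) and Mybpc3 (90 bases upstream). With up to 1 mismatch a CArG box was found in 21.1% of windows and in those of 4 members (Myom1, Ttn, Smyd1 and Unc45b). The match in Smyd1, 31 bases upstream, overlapped the only TATA box letters (TATAAA on either strand, in 13.6% of windows) among the 6 members. A match describes letters only, and binding was not measured here. The 180 bases before the start are printed 5′ to 3′ on the strand of the gene, with exact CArG and MEF2 matches in capitals. They lie at chr17:71019377-71019556 (plus strand) for Myom1, chr2:76982548-76982727 (minus strand) for Ttn, chr2:91117964-91118143 (plus strand) for Mybpc3 and chr6:71262282-71262461 (minus strand) for Smyd1.
Myom1: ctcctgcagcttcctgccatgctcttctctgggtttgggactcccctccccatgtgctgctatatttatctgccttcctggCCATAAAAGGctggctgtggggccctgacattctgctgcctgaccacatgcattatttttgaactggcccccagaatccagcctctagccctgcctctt
Ttn: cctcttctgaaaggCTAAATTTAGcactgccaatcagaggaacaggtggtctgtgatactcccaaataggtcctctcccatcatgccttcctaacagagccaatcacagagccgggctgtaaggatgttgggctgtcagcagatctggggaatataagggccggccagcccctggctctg
Mybpc3: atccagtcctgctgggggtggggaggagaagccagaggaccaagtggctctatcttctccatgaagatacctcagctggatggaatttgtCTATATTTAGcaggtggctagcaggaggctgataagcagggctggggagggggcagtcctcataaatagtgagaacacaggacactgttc
Smyd1: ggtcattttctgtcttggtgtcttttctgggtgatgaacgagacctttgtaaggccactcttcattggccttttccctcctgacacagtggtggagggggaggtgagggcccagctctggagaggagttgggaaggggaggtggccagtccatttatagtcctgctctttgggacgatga

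Total counts ranged from 9740389 to 23103460 per sample. Levels are given as CPM, read counts scaled to library size with TMM factors set over all 12 samples, and values for a group follow replicates 1 to 3. The targeted gene was checked first. Srf was 63.9, 57.1 and 49.4 CPM in P14 CTRL and 32.1, 27.5 and 9.75 CPM in P14 KO, and 71.1, 59.1 and 81.0 CPM in P90 CTRL and 32.8, 28.9 and 28.1 CPM in P90 KO. Every KO sample was below every CTRL sample of its stage. The log2 fold change was -1.30 ± 0.36 (SE, adjusted p = 0.0628) in neonatal KO and -1.23 ± 0.13 (SE, adjusted p = 0.00347) in adult KO by edgeR's quasi-likelihood test. All 6 cardiomyocyte markers had counts in every sample, and their summed level was lower in KO, at 57934 to 62941 CPM against 80284 to 89409 CPM in CTRL at P14, and at 72003 to 75255 CPM against 81037 to 89890 CPM at P90. Most of that sum was the myosin gene Myh6, with KO and CTRL means of 35495 and 55692 CPM at P14. At P90 its means were 40538 and 55320 CPM. Actn2, another of the 6, was higher in KO, at 6502 against 5373 CPM at P14 and 4968 against 4456 CPM at P90. The sum therefore does not describe each marker. The summed fibroblast list was 106 to 295 CPM in P14 CTRL, 172 to 315 CPM in P14 KO and 47.5 to 67.1 CPM over both P90 groups, with all 6 genes present in every sample. The 5 mural cell markers, all present, summed to 77.7 to 168 CPM in P14 CTRL, 191 to 203 CPM in P14 KO and 68.0 to 103 CPM over the P90 samples. The 6 endothelial markers, all present, summed to 207 to 463 CPM over the 12 samples without a gap between groups. Skeletal muscle markers summed to at most 1.58 CPM, 4 of 5 macrophage markers to at most 6.84 CPM, and 3 of 5 red blood cell markers to at most 2.39 CPM with both alpha globin genes at 0. In bulk samples, fewer cells of a type and less RNA per cell cannot be told apart. The part of these differences in the members' results was not tested.

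Per kilobase of exon in the tables, the members spanned a wide range of levels in CTRL CMs. At P14 the group means were 1994 ± 140 CPM per kb for Mybpc3, 414 ± 149 for Myom2, 241 ± 16.1 for Myom1, 230 ± 107 for Smyd1, 176 ± 14.7 for Unc45b, 68.1 ± 17.3 for Ttn and 39.8 ± 3.10 for Obsl1 (SD, n = 3). Smyd1 overlapped its neighbours Myom1 and Unc45b in this order, and the other neighbours did not overlap. At P90 the order was Mybpc3 (2273 ± 208 CPM per kb), Myom2 (281 ± 50.2), Myom1 (265 ± 2.94), Unc45b (194 ± 23.4), Smyd1 (77.1 ± 12.3), Ttn (39.5 ± 8.94) and Obsl1 (19.6 ± 4.88). The myomesins were the only neighbours that overlapped at P90. In KO CMs, Ttn and Obsl1 overlapped on this scale at both stages. The exon length of Ttn, 104320 bp over 314 merged exons, was the longest of all genes and counts every annotated exon, of which a given titin isoform uses a part, so its level per kb is a lower estimate. Gene counts also do not separate titin isoforms.

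**Figure D1:**
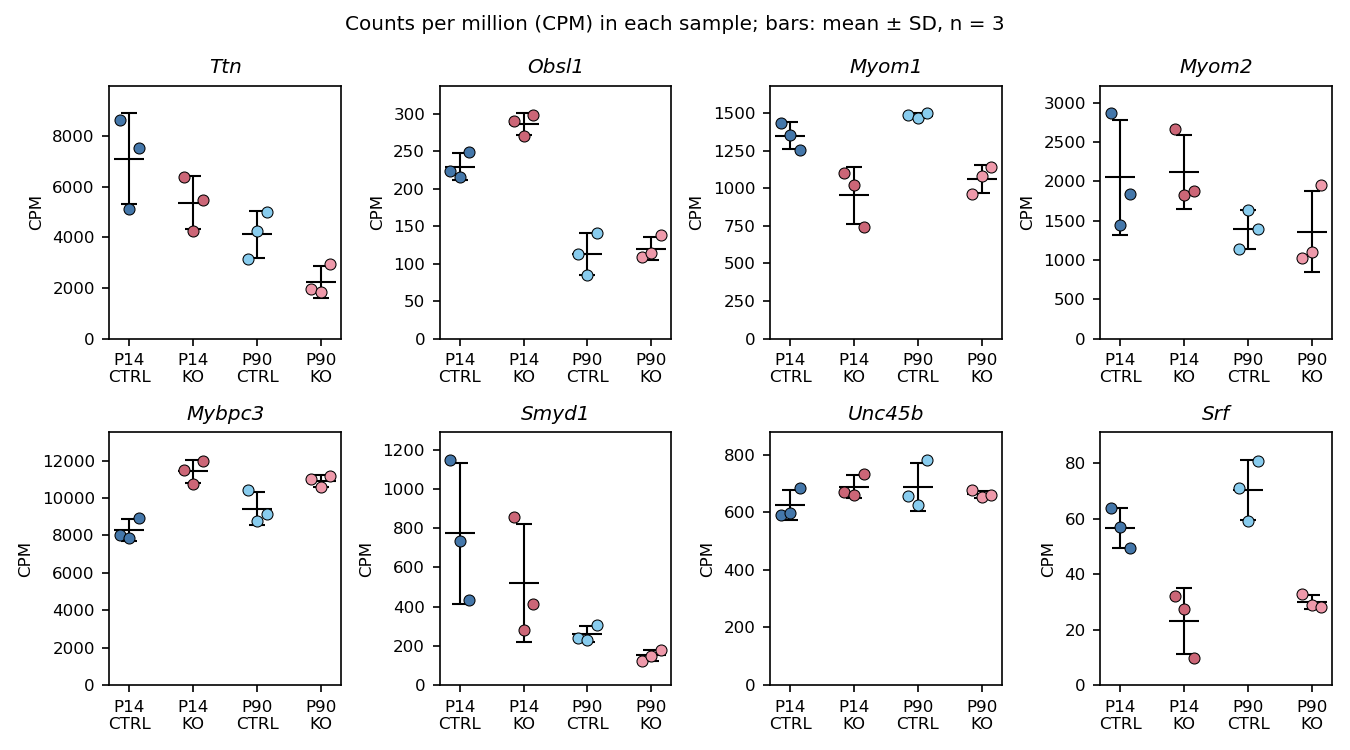
CPM (y axis, linear from 0) of the 7 members and of Srf in each of the 12 samples, by stage and genotype (x axis); points are samples and bars are the mean ± SD of 3. Myom1 in KO lay below CTRL at both stages, at 742 to 1105 CPM against 1259 to 1439 CPM at P14 and 962 to 1144 CPM against 1467 to 1500 CPM at P90, while Myom2 overlapped.

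In neonatal KO CMs, no member passed the threshold (adjusted p under 0.05 over all genes). The edgeR test called 0 of 7 members, against 8.59% of all 12546 genes tested, and DESeq2 called 2 (Myom1 and Mybpc3). At an unadjusted p under 0.05, edgeR had 3 members: Myom1 lower, and Mybpc3 and Obsl1 higher, against 25.6% of all genes at that cut. The same 3 were the members whose KO and CTRL samples did not overlap, against 32.7% of all genes. In adult KO CMs, edgeR again called 0 of 7 members, against 0.39% of all 11808 genes tested, and DESeq2 called 3 (Ttn, Myom1 and Smyd1). At an unadjusted p under 0.05 edgeR had 4 members, with Ttn, Myom1 and Smyd1 lower and Mybpc3 higher, against 16.2% of all genes. Those 4 did not overlap between KO and CTRL, against 21.6% of all genes. The median log2 fold change of the members was 0.05 in neonatal and -0.05 in adult KO, and that of all genes was 0.00108 and 0.00569.

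**Figure D2:**
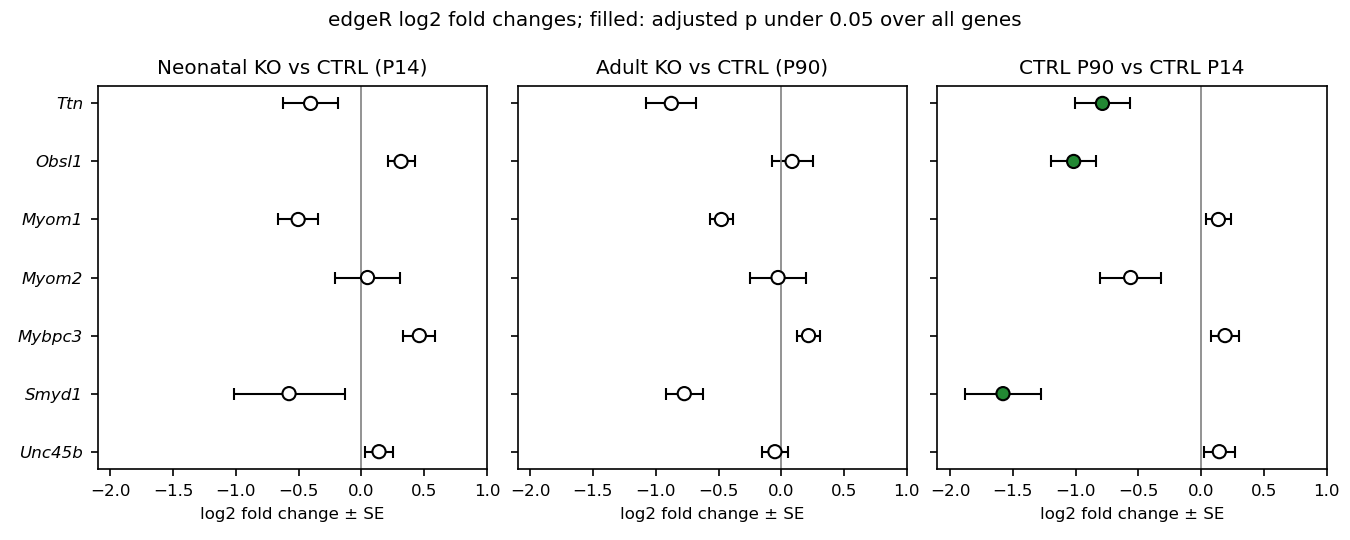
edgeR log2 fold changes (x axis) with their SE for the 7 members (y axis) in neonatal KO against CTRL, adult KO against CTRL, and CTRL at P90 against P14. Filled points passed an adjusted p under 0.05, which were 0, 0 and 3 members. Myom1 was at -0.50 and -0.48 in the KO comparisons and Mybpc3 at 0.46 and 0.22.

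Titin RNA was lower on average in KO at both stages, but neither difference passed the threshold. The gene spans bases 76703984 to 76982547 of chromosome 2 on the minus strand (mm10). It was 8648, 5116 and 7535 CPM in P14 CTRL and 6365, 4262 and 5473 CPM in P14 KO. The P14 groups overlapped, and the first replicate was the highest in each. The neonatal log2 fold change was -0.41 ± 0.22 (SE, edgeR adjusted p = 0.298). It was -0.25 both without P14 CTRL replicate 1 and without P14 KO replicate 2. At P90 it was 3132, 4235 and 4986 CPM in CTRL and 1937, 1819 and 2952 CPM in KO, with no KO sample reaching the CTRL range. KO retained 54.3% of the CTRL mean, which gave -0.88 ± 0.20 (SE) on the log2 scale with an edgeR adjusted p = 0.0865. Without P90 KO replicate 3, the KO sample with the most Ttn, the adult log2 fold change was -1.13 and passed (edgeR adjusted p = 0.0279). It did not pass without any other single P90 sample, with -0.71 (edgeR adjusted p = 0.298) without P90 CTRL replicate 3 as the value closest to 0.

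Differences by exon length lay beside the adult result for Ttn. Among other genes tested in adult CMs, the median log2 fold change was 0.13 for 3350 genes with up to 2 kb of exon, 0.01 for 4752 genes of 2 to 4 kb, -0.11 for 3155 genes of 4 to 8 kb and -0.28 for 544 genes over 8 kb. In neonatal CMs the same medians ran the other way, from -0.10 for the shortest to 0.12 for the longest class, opposite in sign to the Ttn value. For 480 abundant genes over 8 kb, the median log2 deviation from the mean of all 12 samples ran from -0.0187 to 0.18 in CTRL and from 0.12 to 0.30 in KO at P14. At P90 it ran from -0.12 to 0.00571 in CTRL and from -0.49 to -0.0806 in KO. When each sample was corrected for a smooth trend with exon length, Ttn in adult KO was at 0.04 (edgeR adjusted p = 0.93) and in neonatal KO at -0.63 (edgeR adjusted p = 0.0176). With the trend fitted on the other genes and read at the longest of them, the values were -0.03 and -0.67. As the longest gene, Ttn lies at the edge of that trend. The part of exon length in the Ttn values was not tested.

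**Figure D3:**
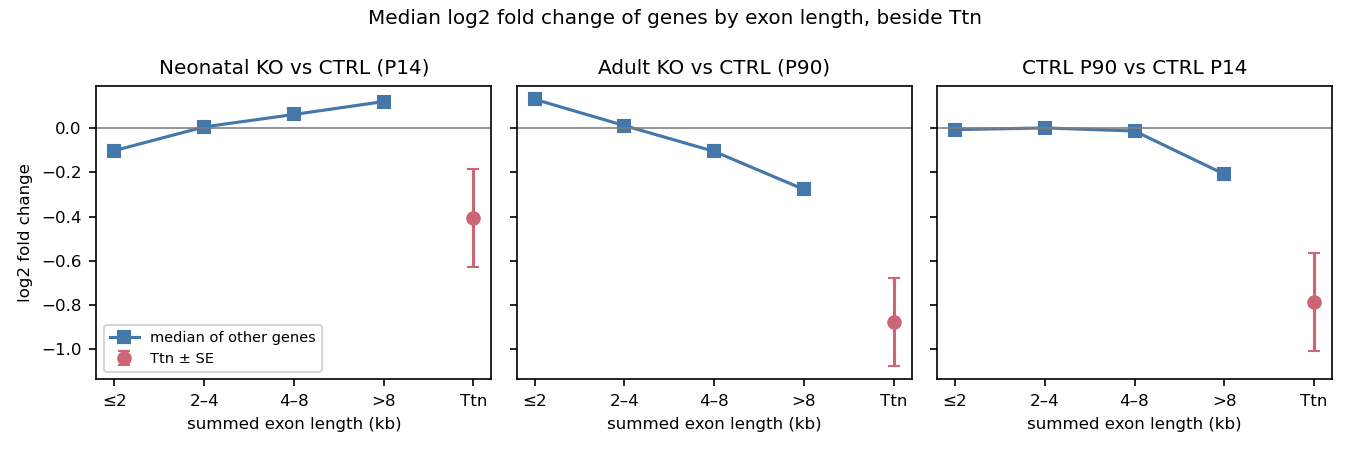
Median log2 fold change (y axis) of the other genes tested in 4 classes of summed exon length in kb (x axis, squares), beside Ttn with its SE (circle), in the 3 comparisons. In adult KO the medians ran from 0.13 in the shortest to -0.28 in the longest class and Ttn was at -0.88, and in neonatal KO they ran from -0.10 to 0.12 while Ttn was at -0.41.

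Among the M-band genes, Myom1 was lower in every KO sample at both stages, short of the threshold by edgeR and past it by DESeq2. Myom1 lies on chromosome 17 at 71019557 to 71126856 (plus strand, 38 merged exons). It was 1439, 1358 and 1259 CPM in P14 CTRL and 1105, 1020 and 742 CPM in P14 KO. It was 1489, 1467 and 1500 CPM in P90 CTRL, a coefficient of variation of 1.11%, and 962, 1085 and 1144 CPM in P90 KO. No KO sample reached a CTRL sample of its stage. The log2 fold change was -0.50 ± 0.16 (SE, edgeR adjusted p = 0.0896) in neonatal KO and -0.48 ± 0.09 (SE, edgeR adjusted p = 0.0554) in adult KO. DESeq2 gave adjusted p = 0.029 and 0.00034. Without P14 KO replicate 3 the neonatal value was -0.33 (edgeR adjusted p = 0.243). The value stayed negative under all 13 alternatives at each stage. It passed under 3 of them in neonatal and 5 in adult KO, DESeq2 included. After the correction for exon length it was -0.58 (edgeR adjusted p = 0.054) in neonatal and -0.36 (edgeR adjusted p = 0.0375) in adult KO.

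Myom2, the myomesin of adult heart and fast skeletal muscle, did not separate KO from CTRL. It lies on chromosome 8 at 15057653 to 15133419 (plus strand, 37 merged exons). It was 2872, 1447 and 1835 CPM in P14 CTRL, 2666, 1829 and 1873 CPM in P14 KO, 1141, 1638 and 1396 CPM in P90 CTRL and 1030, 1097 and 1960 CPM in P90 KO. KO and CTRL overlapped at both stages. On the log2 scale the difference was 0.05 (95% interval -0.54 to 0.64) in neonatal and -0.03 (95% interval -0.51 to 0.46) in adult KO, with edgeR adjusted p = 0.935 and 0.97, so a difference the size of that in Myom1 lay within these intervals.

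The level of Myom2 relative to Myom1 was also read within each sample, where library scaling cancels. The log2 ratio was 1.00, 0.0915 and 0.54 in P14 CTRL and 1.27, 0.84 and 1.34 in P14 KO. It was -0.38, 0.16 and -0.10 in P90 CTRL and 0.0981, 0.0158 and 0.78 in P90 KO. Means were higher in KO at both stages but the groups overlapped. The KO minus CTRL difference was 0.61 ± 0.30 (SE, exact two-sided permutation test, p = 0.2) at P14 and 0.41 ± 0.29 (SE, exact permutation p = 0.3) at P90, and CTRL at P90 minus P14 was -0.65 ± 0.30 (SE, exact permutation p = 0.2). Single samples moved these values, to 0.38 at P14 without CTRL replicate 2, to 0.17 at P90 without KO replicate 3 and to -0.43 with age without P14 CTRL replicate 1. With 3 samples against 3, the exact permutation test cannot go below p = 0.1.

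**Figure D4:**
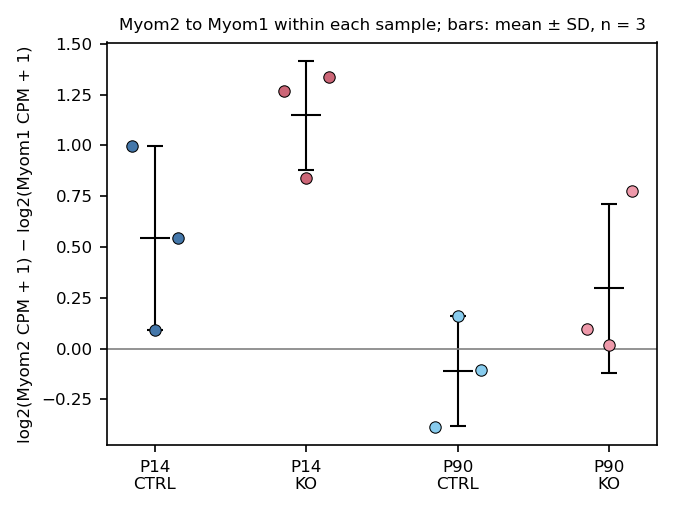
Log2 of Myom2 over Myom1 CPM (y axis, each CPM plus 1) in each of the 12 samples by group (x axis), with the mean ± SD of 3. The means were 0.54 in P14 CTRL, 1.15 in P14 KO, -0.11 in P90 CTRL and 0.30 in P90 KO, and samples of compared groups overlapped.

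Obsl1, the obscurin-like adaptor, lay above CTRL in neonatal KO samples and within the CTRL range in adult KO samples, and neither difference passed. It lies on chromosome 1 at 75485825 to 75506452 (minus strand, 20 merged exons). It was 224, 215 and 249.5 CPM in P14 CTRL and 290.0, 269.8 and 299 CPM in P14 KO, without overlap. It was 113, 85.2 and 141 CPM in P90 CTRL and 109, 114 and 138 CPM in P90 KO, where KO lay inside the CTRL range. The log2 fold change was 0.32 ± 0.11 (SE, edgeR adjusted p = 0.111) in neonatal KO and 0.09 ± 0.16 (SE, edgeR adjusted p = 0.832) in adult KO. The difference between these 2 values was 0.24 ± 0.22 (SE, edgeR adjusted p = 0.607).

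Mybpc3 was the most abundant member per kb and its KO samples lay above CTRL at both stages, short of the threshold by edgeR. It lies on chromosome 2 at 91118144 to 91136516 (plus strand, 32 merged exons). It was 8025, 7861 and 8937 CPM in P14 CTRL and 11507, 10739 and 12001 CPM in P14 KO. At P90 it was 10411, 8766 and 9125 CPM in CTRL and 11010, 10563 and 11199 CPM in KO, where the lowest KO sample stood just over the highest CTRL sample. KO against CTRL was 0.46 ± 0.13 (SE, edgeR adjusted p = 0.0605) in neonatal and 0.22 ± 0.09 (SE, edgeR adjusted p = 0.283) in adult KO on the log2 scale. By DESeq2 the adjusted p was 0.00209 and 0.241. The value was positive under all 13 alternatives at each stage, and passed under 4 of them in neonatal and 0 in adult KO. The stage difference was 0.25 ± 0.14 (SE, edgeR adjusted p = 0.366).

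Smyd1 was lower in every adult KO sample, just short of the threshold by edgeR, and varied widely within both P14 groups. It lies on chromosome 6 at 71213940 to 71262281 (minus strand, 10 merged exons). It was 1151, 736 and 435 CPM in P14 CTRL and 858, 283 and 416 CPM in P14 KO, and the highest sample was 2.64 times the lowest in CTRL and 3.03 times in KO. At P90 it was 241, 229.6 and 306 CPM in CTRL and 124, 149 and 181 CPM in KO, without overlap. Neonatal KO differed from CTRL by -0.58 ± 0.44 on the log2 scale (SE, edgeR adjusted p = 0.468), with a 95% interval of -1.59 to 0.43. This value was -0.18 without P14 CTRL replicate 1, -0.27 without P14 KO replicate 2 and -1.14 without P14 KO replicate 1. The adult value was -0.77 ± 0.15 (SE, edgeR adjusted p = 0.0554), and DESeq2 gave adjusted p = 0.000138. Without P90 KO replicate 3 it was -0.92 and passed (edgeR adjusted p = 0.0364). It did not pass without any other single P90 sample, with -0.63 (edgeR adjusted p = 0.202) without P90 CTRL replicate 3 as the value closest to 0. It was negative under all 13 alternatives and passed under 6 of them. After the correction for exon length it was -0.76 (edgeR adjusted p = 0.0445).

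Unc45b, the myosin chaperone, was the most even member over the 12 samples. It lies on chromosome 11 at 82911253 to 82943406 (plus strand, 20 merged exons), and 151 bases of its exons overlap 1700003F17Rik on the other strand, so reads there could not be assigned without a strand setting, which is not given in the sources used here. It was 590, 597 and 683 CPM in P14 CTRL, 672, 660.1 and 733 CPM in P14 KO, 656, 627 and 783 CPM in P90 CTRL and 676, 653 and 658 CPM in P90 KO. KO and CTRL overlapped at both stages. On the log2 scale the difference was 0.14 (95% interval -0.12 to 0.40) in neonatal and -0.05 (95% interval -0.28 to 0.18) in adult KO, with edgeR adjusted p = 0.495 and 0.844.

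Whether the KO difference of a member depended on stage was tested as an interaction, neonatal minus adult. The edgeR test called 0 of 7 members, against 1.78% of 12841 genes, 0 had an unadjusted p under 0.05, and DESeq2 called 0. The member values ran from -0.02 ± 0.19 (SE) for Myom1 to 0.48 ± 0.33 (SE) for Ttn, and that of Ttn turned to -0.70 (edgeR adjusted p = 0.14) under the exon length correction. The 95% interval was -0.42 to 0.38 for Myom1 and -0.24 to 1.20 for Ttn, so stage differences within these bounds were compatible with the data. Stage cannot be told apart from handling or sequencing, since each stage has a table of its own. The time from injection to isolation also differed with stage, P1 to P14 in neonatal and P60 to P90 in adult animals.

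The age of the CTRL CMs was compared next. By edgeR, 3 of 7 members were lower at P90 than at P14 and 0 were higher, against 29.3% of 12294 genes called in either direction, and DESeq2 also called 3. Obsl1 fell by 1.02 on the log2 scale (SE 0.18, edgeR adjusted p = 0.00358) and Smyd1 fell by 1.58 (SE 0.30, edgeR adjusted p = 0.00558), and both passed under all 13 alternatives. Ttn fell by 0.79 (SE 0.22, edgeR adjusted p = 0.0277). CTRL samples at the 2 ages did not overlap for 4 members (Ttn, Obsl1 and Smyd1 lower, Myom1 higher), against 44.9% of all genes. The P14 CTRL and P90 CTRL samples here are those used in the KO comparisons. Age in these samples cannot be told apart from handling, sequencing or the time since injection.

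The call for Ttn with age was lost without some single samples and under the exon length correction. Without P14 CTRL replicate 1 it was -0.60 (edgeR adjusted p = 0.0977), without P14 CTRL replicate 3 -0.74 (0.0664), without P90 CTRL replicate 1 -0.62 (0.107) and without P90 CTRL replicate 2 -0.81 (0.0824). After the correction for exon length it was 0.02 (edgeR adjusted p = 0.872), and the median of 572 other genes over 8 kb was -0.21. Myom2 was -0.56 ± 0.24 (SE, edgeR adjusted p = 0.112) with age, and it depended on single samples. It was -0.77 and passed without P14 CTRL replicate 2 (edgeR adjusted p = 0.0148), and was -0.22 without P14 CTRL replicate 1 (edgeR adjusted p = 0.414). Myom1, Mybpc3 and Unc45b had log2 differences of 0.14, 0.19 and 0.15, with edgeR adjusted p from 0.229 to 0.413.

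The partners of these proteins were followed in 4 lists of 51 genes, 48 of which were tested in each comparison (Ankrd2, Mybpc1 and Mybph were too low). In neonatal KO, 10 of 48 passed (5 higher and 5 lower, median log2 fold change -0.14), and in adult KO 2 of 48 (1 higher and 1 lower, median 0.11). Between CTRL ages, 18 of 48 passed (14 higher and 4 lower at P90, median 0.05). Read against 8.59%, 0.39% and 29.3% of all genes, these are 20.8%, 4.17% and 37.5% of the genes tested. These counts depended on the samples and the test. In neonatal KO, 3 passed without KO replicate 1 or 2, 6 without CTRL replicate 1, 15 by DESeq2 and 16 in the fit of all 12 samples. In adult KO the count was 1 to 2 without single samples, 7 by DESeq2, 11 without a filter and 0 in the fit of all 12 samples. With age it was 12 without P14 CTRL replicate 1 and 13 without P90 CTRL replicate 1 or 2, and over the other alternatives 14 to 23. For the interaction, where 2 passed, it was 0 without P14 KO replicate 3, P90 CTRL replicate 3, or P90 KO replicate 1 or 2. The lists were chosen with earlier results known, so the shares describe these genes only.

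Of the M-band and obscurin partners, 1 of 10 passed in neonatal KO, against 8.59% of all genes. All 10 values were below 0, with a median of -0.24 against 0.00108 for all genes. The gene that passed was Ckm, muscle creatine kinase, an enzyme anchored at the M-band, which went from 3751 to 971 CPM (log2 fold change -1.96 ± 0.37, SE, edgeR adjusted p = 0.020). At an unadjusted p under 0.05, edgeR had 4 of the 10, against 25.6% of all genes, and DESeq2 called 4. In adult KO 1 of 10 was called, against 0.39% of all genes, and the median was -0.05. It was again Ckm, from 3665 to 1832 CPM (-0.99 ± 0.12, SE, edgeR adjusted p = 0.00755). The adult Ckm call was lost in the fit of all 12 samples, which called 0 genes of the 4 lists. In adult KO edgeR had 4 of the 10 at an unadjusted p under 0.05, against 16.2% of all genes, and DESeq2 called 2. With age in CTRL, 4 of 10 passed, against 29.3% of all genes. Cmya5 (myospryn) at 1.28 and Fsd2 at 0.41 rose on the log2 scale. Lrrc39, which encodes the M-band protein myomasp, and Smpx fell by 0.45 and 0.51.

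Titin-binding and titin-splicing genes changed in both directions in neonatal KO, with 2 of 15 higher and 2 lower (median 0.27). Together these were 26.7% of the list, against 8.59% of all genes. Ankrd23, an ankyrin repeat protein that binds titin in the I-band, rose from 299 to 656 CPM (1.13 ± 0.14, SE, edgeR adjusted p = 0.00699), and Fhl1, a LIM protein that binds the titin spring region, from 112 to 208 CPM (0.88 ± 0.16, SE, edgeR adjusted p = 0.0189). Trim54 and Trim55, ubiquitin ligases of the MuRF family, fell by 0.94 and 0.51 (edgeR adjusted p = 0.0477 and 0.0222). In adult KO edgeR called 0 of 15 (median 0.10), against 0.39% of all genes. At an unadjusted p under 0.05 edgeR had 2, against 16.2% of all genes, and DESeq2 called 1. The Ankrd23 effect differed between stages (interaction 0.93 ± 0.20, SE, edgeR adjusted p = 0.0399). With age, 5 of 15 rose and 1 fell, 40% of the list against 29.3% of all genes. The largest changes were Trim54 at 1.69, Cryab (a small heat shock protein) at 1.31, Ankrd23 at 1.31 and Tcap (the titin cap of the Z-disk) at 0.61.

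Myosins and the other myosin binding protein genes changed in both directions in neonatal KO, with 2 of 10 higher and 2 lower. Together these were 40% of the list, against 8.59% of all genes. The list median was 0.72, against 0.00108 for all genes. It includes the uncalled values of Myl7 (3.53) and Mybphl (2.72), which stood at 0.922 and 0.425 CPM in P14 CTRL. Mybpc2, the fast skeletal form of myosin binding protein C, rose from 40.02 to 156 CPM (1.96 ± 0.21, SE, edgeR adjusted p = 0.00406). The 6 skeletal muscle markers summed to 1.58 CPM at most. The source of the Mybpc2 RNA was not tested. Myl4, the atrial essential light chain, rose from 3.88 to 12.4 CPM (1.67 ± 0.33, SE, edgeR adjusted p = 0.0226). Myh6, the main myosin heavy chain of the mouse heart, fell by 0.65 on the log2 scale (SE 0.16, edgeR adjusted p = 0.0466) and Myl3, the ventricular essential light chain, fell by 1.34 (SE 0.23, edgeR adjusted p = 0.0163). In adult KO edgeR called 0 of 10 (median 0.23), against 0.39% of all genes. At an unadjusted p under 0.05 edgeR had 5, against 16.2% of all genes, and DESeq2 called 3. The Mybpc2 effect was larger in neonatal KO (interaction 1.5 ± 0.25, SE, edgeR adjusted p = 0.021). With age 3 of 10 passed, all higher, against 29.3% of all genes. These were the atrial genes Myl7, Mybphl and Myl4, with log2 differences of 4.87, 3.42 and 2.41, from 0.922, 0.425 and 3.88 CPM. The mix of atrial and ventricular CMs in the sort was not measured.

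Myosin folding and methylation partners gave 1 call of 13 (7.69%) in each KO comparison, the same gene. Over all genes the share was 8.59% in neonatal and 0.39% in adult KO. Hsp90aa1, the inducible Hsp90 that works with Unc45b on myosin, rose from 60.2 to 112 CPM in neonatal KO (0.89 ± 0.12, SE, edgeR adjusted p = 0.00976) and from 72.3 to 121 CPM in adult KO (0.75 ± 0.13, SE, edgeR adjusted p = 0.0494). The adult call stood just under the threshold and was lost in the fit of all 12 samples, which called 0 genes of the 4 lists. The list medians were -0.17 and 0.08. With age 4 of 13 rose and 1 fell, 38.5% of the list against 29.3% of all genes. Among those higher, Smyd4 rose by 0.81, Hspa8 by 0.68 and Hsp90ab1 by 0.66 on the log2 scale. Smyd2, a relative of Smyd1, fell by 0.77.

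**Figure D5:**
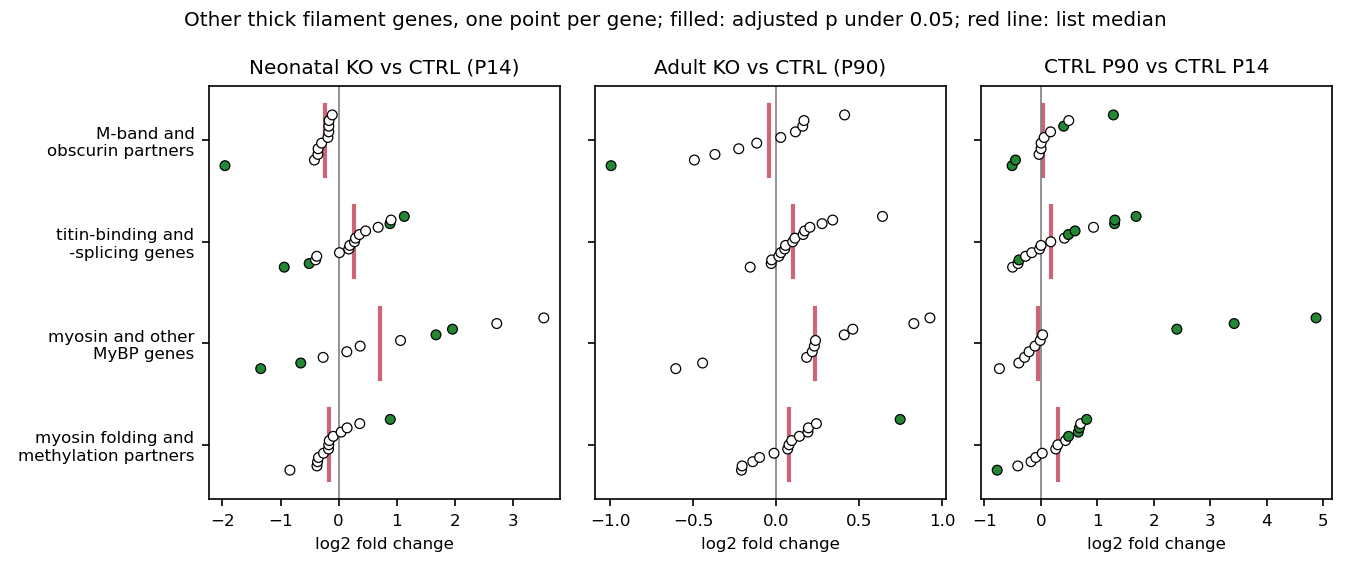
Log2 fold changes (x axis, its range differs between panels) of the 48 tested partner genes in 4 lists (y axis) for the 3 comparisons; each point is a gene, filled where the adjusted p was under 0.05, and red lines are list medians. Calls numbered 10 in neonatal KO, 2 in adult KO and 18 between CTRL ages. All 10 M-band and obscurin partners lay below 0 in neonatal KO, where the median of all genes was 0.00108.

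Genes whose profile was most like each member were found among 9459 genes with a mean of at least 5 CPM, by the root mean square (RMS) difference of centred log2 values over the 12 samples. The values were not scaled, so genes that vary little lie close to each other whatever their pattern. The RMS difference is therefore no measure of shared regulation. Unc45b and Mybpc3 had close matches, Lrrc41 at an RMS difference of 0.0629 for Unc45b and Hdac5 at 0.0678 for Mybpc3. The nearest gene to Myom1 was Ppp1r3b (0.14), to Obsl1 BC026590 (0.14), to Myom2 Fli1 (0.20) and to Ttn Ccnj (0.22). Smyd1 had the most distant nearest gene, Itga9 at 0.42, and Ttn was the member nearest to it, at rank 11 of all genes (0.48). For the other members the nearest of the 7 stood at rank 182 or beyond.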

How the data were processed

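RNA-seq of 12 samples was used. Per the labels, 10 ng of total RNA from sorted CMs was reverse transcribed and amplified with the SMART-Seq v4 kit, followed by Nextera XT library preparation. Such amplified cDNA starts from the poly(A) end, and no molecular identifiers mark molecules. The submitters' processing notes name CASAVA 1.8, STAR 2.5.3a, featureCounts and Subread 1.5.2, with build mm10. The strand setting and the treatment of multi-mapped reads are not given in the sources used here. The authors deposited raw counts per gene, not normalized, in 2 tables, 1 per stage, with exon coordinates and lengths for 23337 genes.

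Samples were grouped by their titles. The counts were tested with edgeR 4.0.16 in R 4.3.3 (filterByExpr, TMM, quasi-likelihood F-test, Benjamini-Hochberg over all genes tested, adjusted p under 0.05), and the SE of a log2 fold change was its size over the square root of F. DESeq2 1.42.0, the authors' tool, was run as an alternative. KO was compared with CTRL in the 6 samples of each stage, the interaction in all 12 and CTRL ages in 6. CPM used TMM-scaled library sizes, and 3 counts correspond to 0.138 to 0.326 CPM, which covers counting error only. The exon length correction took offsets from a loess curve (span 0.5). The edgeR test without that correction was run on simulated counts, and the correction itself was not. The simulated counts were independent between samples, with no exon length trend, so that run does not cover such trends or shared replicate effects. Alternatives were DESeq2, RLE factors, no filter, a replicate block, a fit of all 12 samples, the exon length correction and leaving out each sample. The length curve fitted without Ttn was chosen after seeing the data. Partner genes were named when they were past the threshold, at most 4 per list and comparison by size of log2 fold change. The members and lists were chosen with earlier results of these data known. The series calls the 3 samples of a group biological replicates; the titles do not tie them to litters or days.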

Additional observations from a re-analysis of the deposited data

How the results depend on the processing

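Of the 28 member log2 fold changes over 4 comparisons, each computed under 13 to 18 alternatives, 336 alternative values kept direction and side of the threshold, 26 came past it, 6 lost it and 31 turned sign. Without P14 KO replicates the neonatal count over all genes was down to 111 (range without single samples 111 to 1004), in adult KO it was 6 to 51, for the interaction 4 to 377 and for CTRL ages 2067 to 4768. Members called without single samples numbered 0 to 2 in adult KO. DESeq2 called 1788 genes and 2 members in neonatal KO, 351 and 3 in adult KO, and 912 genes for the interaction. Without a filter, adult KO gave 701 genes and 3 members and the interaction 474 genes. The fit of all 12 samples gave 2088 genes and 2 members in neonatal KO and 3 genes in adult KO. The share of calls that were higher in adult KO was 60.9% by edgeR, 47.6% by DESeq2 and 51.1% without a filter.

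With the exon length correction, 2 members were called in each KO comparison, Ttn and Mybpc3 in neonatal and Myom1 and Smyd1 in adult KO. Over all genes 84 were called in adult KO. These calls were the same with the curve fitted without Ttn. Ttn turned to 0.0395 in adult KO, 0.0205 with age and -0.70 for the interaction (-0.68 with the curve fitted without Ttn), and Myom2 turned to -0.0113 in neonatal KO, 0.0563 in adult KO and -0.0776 for the interaction (-0.0775 with the other curve). The correction removes what a long gene shares with other long genes. Leaving out single samples turned uncalled values: Myom2 ran from -0.15 to 0.36 in neonatal KO and -0.39 to 0.14 in adult KO, Obsl1 from -0.0831 to 0.28 and Unc45b from -0.12 to 0.0525 in adult KO, and for the interaction Myom1 ran from -0.14 to 0.12, Myom2 from -0.12 to 0.44 and Smyd1 from -0.37 to 0.60. The cause of the other changes was not tested.

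The deviations of same-numbered CTRL and KO samples of a stage were correlated at 0.0431 to 0.34, and those of CTRL samples of both ages at -0.13 to 0.0134, not every sample correlated best with its own number, and nothing in the labels pairs them. With the replicate block, 1 member (Myom1) was called in neonatal KO, 3 in adult KO (Ttn, Myom1 and Smyd1, among 655 genes), 0 for the interaction (687 genes) and 2 with age, where Ttn no longer passed (-0.77, adjusted p = 0.0565).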

Other observations

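At P14, replicate 1 was the highest sample of both genotypes for Ttn, Myom2 and Smyd1, at 8648 and 6365 CPM for Ttn, 2872 and 2666 CPM for Myom2, and 1151 and 858 CPM for Smyd1 in CTRL and KO. No shared litter or day is given for same-numbered samples. P90 KO replicate 3 was the highest of its group for Ttn, Myom2, Obsl1, Myom1, Mybpc3 and Smyd1, and its Myom2 level of 1960 CPM stood above all CTRL samples of its stage (1141 to 1638 CPM).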
